A study of Mus musculus with 8 samples.

Results

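The transcripts of 10 chemokines made by pancreatic tumor cells were followed through inhibition of MEK. They were chosen by name from a table of 34478 genes: Cxcl1, Cxcl2, Cxcl3 and Cxcl5, taken here as the neutrophil-attracting group, Cxcl10 and Ccl5, taken as the T-cell-attracting group, and Cxcl12, Cxcl16, Ccl2 and Ccl20. The choice was made with earlier results of these data known. The tumor cells were 4 primary lines of murine pancreatic ductal adenocarcinoma (PDAC), numbered #1, #3, #5 and #10, sequenced with 1 RNA library each after DMSO (the solvent) and 1 after 48 h of trametinib, an inhibitor of the kinase MEK. All lines came from tumors of genetically engineered mice whose alleles include Ptf1awt/Cre and Trp53loxP/loxP, in which Cre expressed from the pancreatic Ptf1a locus deletes Trp53, so both groups carried these alleles. Trametinib was given at the IC50 of each line, the dose of intermediate effect on viability, so the doses may have differed between lines. The label names no replicate cultures, and the spread in this report is that between 4 lines.

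Chemokines are small secreted proteins that guide leukocytes along gradients, and they act through receptors of the G protein-coupled family. CXCL1, CXCL2, CXCL3 and CXCL5 bind CXCR2 on neutrophils, while CXCL10, through CXCR3, and CCL5 draw activated T cells. In pancreatic tumors, which commonly hold many myeloid cells and few T cells, both kinds of signal can come from the tumor cells themselves, and NF-kappaB, AP-1 and interferon-regulated factors are known to act on several of these genes. Only RNA was measured here, in cultured tumor cells, so the counts say nothing of secreted protein or of leukocytes.

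The neutrophil-attracting members all lie in 1 gene cluster. In GENCODE M21 on GRCm38, Cxcl5, Ppbp, Pf4, Cxcl3, Cxcl15, Cxcl1 and Cxcl2 fill 147 kb on the plus strand of chromosome 5 (chr5:90759360-90905938). Cxcl10 (chr5:92346638-92348889, minus strand) stands between Cxcl9 and Cxcl11, 1415 kb further along the same chromosome from Cxcl2 to Cxcl9. Cxcl12 lies on chromosome 6, Ccl20 on chromosome 1, and Cxcl16, Ccl2 and Ccl5 on chromosome 11. Exons of Cxcl10 overlap those of Art3 over 133 bases, and exons of Cxcl16 overlap those of Zmynd15 over 552 bases, each on the other strand. The library kit kept the strand, but whether strand was used in counting is not given in the sources used here. Of 45 pairs of members, Cxcl2 and Cxcl3 alone shared stretches of 31 identical transcript bases, at 161 places or 7.59% of those in Cxcl2, so some of their reads could have been assigned to either.

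Promoter sequences from RefSeq (GRCm38.p6, 250 bases before to 50 after the start) were found for 6 of the 10 members, Cxcl1, Cxcl2, Cxcl3, Cxcl10, Cxcl12 and Ccl20. They are shown because 3 of the 4 neutrophil-attracting genes and Cxcl10, which the comparison sets against each other, hold the same kind of motif close to the start. The whole window was searched, and the stretch printed is all of it for Cxcl10 and the 150 bases before the start for the other 5. Capitals mark matches on either strand to the NF-kappaB consensus and, in Cxcl10, also to AP-1 (TGANTCA) and to the interferon-stimulated response element ISRE (GAAA, any 2 bases, GAAA), and in Cxcl3 to TATAAA. Each sequence is written 5′ to 3′ along the gene's own strand.
Cxcl1, chr5:90891095-90891244, plus strand: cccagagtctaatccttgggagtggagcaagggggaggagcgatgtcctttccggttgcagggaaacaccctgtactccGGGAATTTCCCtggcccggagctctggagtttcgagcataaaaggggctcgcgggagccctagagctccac
Cxcl2, chr5:90903749-90903898, plus strand: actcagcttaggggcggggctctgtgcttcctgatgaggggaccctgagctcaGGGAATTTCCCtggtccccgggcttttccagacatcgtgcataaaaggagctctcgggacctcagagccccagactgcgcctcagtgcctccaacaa
Cxcl3, chr5:90785951-90786100, plus strand: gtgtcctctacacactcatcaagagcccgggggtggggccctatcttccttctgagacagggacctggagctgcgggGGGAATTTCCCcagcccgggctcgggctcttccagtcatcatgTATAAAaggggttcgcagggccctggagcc
Cxcl10, chr5:92348840-92349139, minus strand: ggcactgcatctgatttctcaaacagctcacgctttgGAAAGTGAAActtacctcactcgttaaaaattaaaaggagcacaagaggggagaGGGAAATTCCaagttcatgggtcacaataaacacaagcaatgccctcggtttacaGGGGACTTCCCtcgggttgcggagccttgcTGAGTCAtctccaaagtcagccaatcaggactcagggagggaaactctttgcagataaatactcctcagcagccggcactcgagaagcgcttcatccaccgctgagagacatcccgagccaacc
Ccl20, chr1:83116616-83116765, plus strand: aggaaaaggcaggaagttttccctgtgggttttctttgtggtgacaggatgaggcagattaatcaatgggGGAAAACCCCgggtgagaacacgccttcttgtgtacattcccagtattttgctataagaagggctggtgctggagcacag
Cxcl12, chr6:117168385-117168534, plus strand: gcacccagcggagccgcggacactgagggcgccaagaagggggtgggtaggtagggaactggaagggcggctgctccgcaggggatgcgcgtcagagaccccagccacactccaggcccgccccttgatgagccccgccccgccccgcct

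The NF-kappaB consensus was found in 5 of these 6 promoters, against 8.46% of the 32851 promoters of the same table. In Cxcl1, Cxcl2 and Cxcl3 the match was the same run, GGGAATTTCCC, which holds overlapping matches on both strands and begins 71, 97 and 73 bases before the start. The promoter of Cxcl10 held 1 match beginning 159 bases before the start and overlapping matches in the run GGGGACTTCCC that begins 104 bases before it. It was also the only one of the 6 with an AP-1 match (7.81% of all promoters) and with an ISRE match (3.44%). TATAAA was found in Cxcl3 alone (13.6%), and no match to any of the 4 motifs was found in the window of Cxcl12. A match is a description of the sequence and was not tested as a binding site.

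The libraries held between 30680091 and 36385719 normalized counts, a signal that the authors had scaled so that libraries could be compared. From the step between low values, depth was estimated at between 29300000 and 45900000 reads, and 1 read was worth 0.775 to 1.24 normalized counts. A floor of 3 reads lay at 2.33 to 3.72 normalized counts, and covers counting error only. Targets of MEK signaling were lower in every line. Dusp6, a phosphatase induced by ERK, was at 4992 to 9662 with DMSO and at 638 to 2231 with trametinib, and Etv4, an ETS factor downstream of ERK, was at 2106 to 2997 and at 16.5 to 80.0. Their log2 fold changes were -2.51 and -5.92 (adjusted p = 0.000123 and 0.000201 in limma). Of all genes tested, 27.3% rose and 25.6% fell, and the counts of marker genes that follow stand beside these shares. Keratins marked the cells as epithelial in every library, with Krt8 between 27587 and 132484 normalized counts, although Epcam was listed at 0 in 6 of 8 libraries. The 6 epithelial markers summed to 220830 to 347527 with DMSO and to 112420 to 220764 with trametinib, and of 5 tested, 4 fell (Krt7, Krt18, Krt8 and Krt19, by 0.97, 0.82, 0.74 and 0.66 on the log2 scale), of which Krt8 and Krt19 did not pass with libraries rescaled to equal totals. Leukocyte markers had a sum over 8 listed genes of 151 to 259 with DMSO and 244 to 519 with trametinib. Cd68, a lysosomal protein abundant in macrophages, made up most of the sum with DMSO, at 129.8 to 228 in the 8 libraries, while Cd3e and Lyz2 were at or under 2 in each. Of the 4 of these that were tested, the macrophage receptor Csf1r alone rose (log2 fold change 2.83, adjusted p = 0.000697 in limma). Markers of fibroblasts summed to 95.8 to 369 with DMSO and 440 to 1260 with trametinib, where Col1a1 alone of 5 tested rose (log2 fold change 3.60, adjusted p = 0.000872 in limma). Markers of endothelial cells summed to 38.1 to 82.1 and 75.5 to 1779, and 2 of 4 tested rose. Of these, Tek passed the filter on low values through its trametinib values, since its DMSO mean was under 10. Tek rose by 3.77 on the log2 scale (adjusted p = 0.0015 in limma) and by 3.31 without line #3, whereas Vwf (2.14, adjusted p = 0.0435 in limma) was 1.17 without line #3 and did not pass there. The part of other cell types in the chemokine values was not tested, and in bulk RNA fewer cells of a type and less RNA per cell cannot be told apart.

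**Figure D1:**
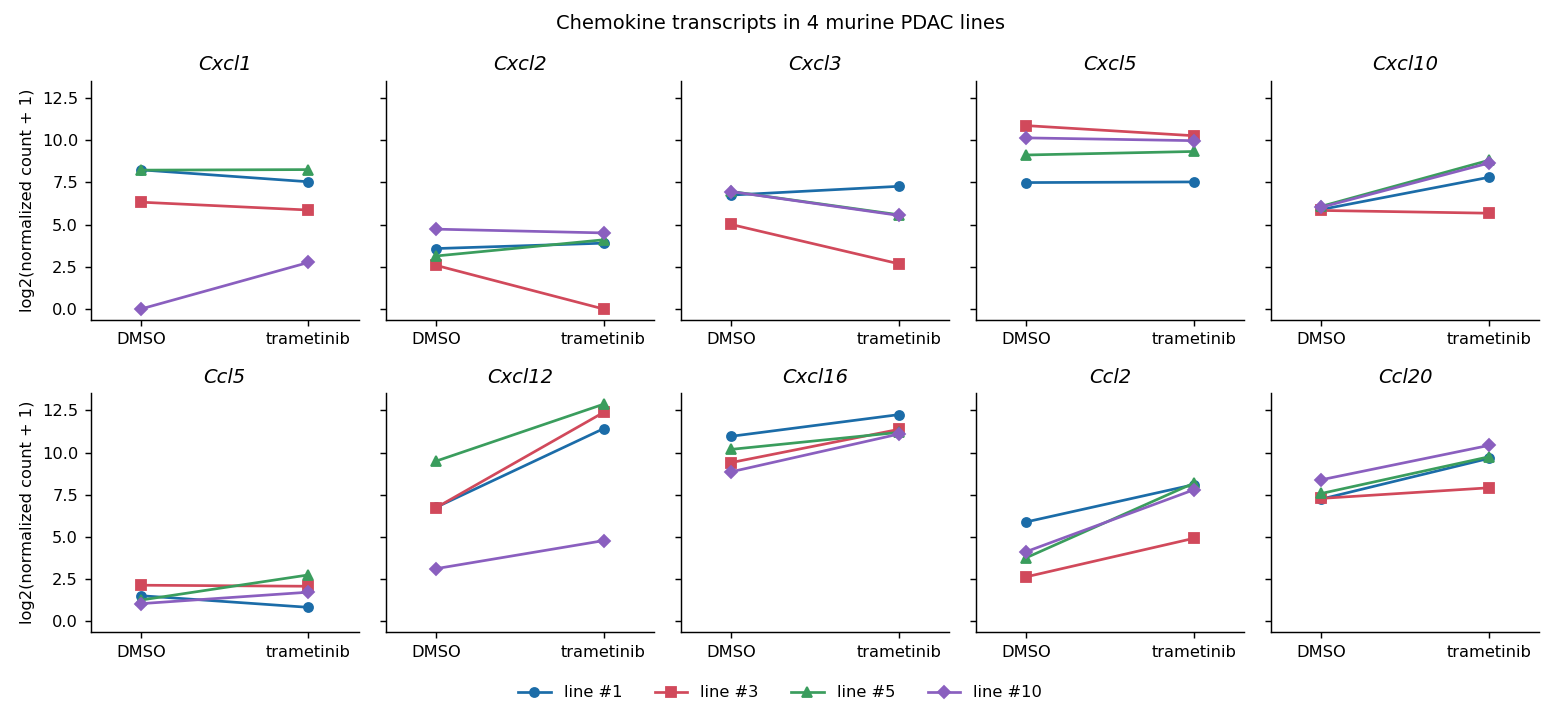
Levels of the 10 chemokine transcripts, as log2(normalized count + 1), with DMSO and with trametinib, and lines joining the libraries of the same cell line. Cxcl12, Cxcl16, Ccl2 and Ccl20 rose in 4 of 4 lines, whereas Cxcl10 rose from nearly the same level in 3 lines and stayed at 50.2 in line #3.

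Trametinib raised several chemokines and left the neutrophil-attracting group without a common direction. Of the 10 members, 9 passed the filter on low values and were tested. In the limma fit, in which each line was a block, 5 rose at an adjusted p under 0.05 (Cxcl10, Cxcl12, Cxcl16, Ccl2 and Ccl20) and 0 fell, where 27.3% of the 15888 genes tested rose and 25.6% fell. Of the members that did not pass, 1 was lower at an unadjusted p under 0.05 (Cxcl3), and the others were not. The median log2 fold change was 1.62 over the 9 members tested and 0.07 over all genes tested. Since the members were chosen with earlier results known, these values describe them and do not test them as a group. Higher values in 4 of 4 lines were seen for 4 members, against 34.7% of all genes tested. Cxcl16 alone had all libraries with trametinib above all libraries with DMSO, which held for 15.1% of the genes tested.

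Among the neutrophil-attracting chemokines, Cxcl5 had the highest mean and the smallest spread of changes between lines, although in line #1 Cxcl1 was above it under each treatment. Its normalized counts in lines #1, #3, #5 and #10 were 179, 1872, 559 and 1130 with DMSO and 184, 1235, 646 and 1008 with trametinib. Lines kept their order, with line #1 lowest and line #3 highest under each treatment, and the groups overlapped throughout. The log2 fold change was -0.13 (95% confidence interval -0.49 to 0.23, adjusted p = 0.498 in limma), and it lay within 0.60 of no change in every line. Between lines, by contrast, Cxcl5 ranged from 179 to 1872 with DMSO alone.

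Cxcl1, a ligand of CXCR2 that many epithelial tumors make, had 303, 79.6, 299.5 and 0 normalized counts in the DMSO libraries of lines #1, #3, #5 and #10. With trametinib it was at 185, 57.3, 306 and 5.76. Lines #1 and #5 were high and line #10 was at the bottom, listed at 0 with DMSO, so the groups overlapped. Its log2 fold change was 0.40 (95% confidence interval -0.96 to 1.76, adjusted p = 0.574 in limma). This positive value rested on line #10, since the changes were -0.71, -0.47 and 0.03 in the other lines, and without line #10 the estimate was -0.38.

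Cxcl3, a close relative of Cxcl1, was at 107, 31.2, 124 and 124 normalized counts with DMSO and at 154, 5.42, 47.1 and 45.8 with trametinib in lines #1, #3, #5 and #10. The values were lower in lines #3, #5 and #10 and higher in line #1, and the groups overlapped. The log2 fold change of -1.15 (95% confidence interval -2.22 to -0.08) did not pass the test (adjusted p = 0.0682 in limma). Cxcl3 did pass as lower without line #1 (-1.71, adjusted p = 0.0129 in limma), with quantile normalization and with each library centred on its median, and over all alternatives its adjusted p lay between 0.0129 and 0.371.

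Cxcl2, the fourth CXCR2 ligand, was close to the limit of the depth. It was at 11, 5.01, 7.83 and 25.6 normalized counts with DMSO and at 13.9, 0, 16.2 and 21.8 with trametinib. Line #10 was highest in each group and line #3 lowest, where it was listed at 0 with trametinib. The log2 fold change was -0.38 (95% confidence interval -1.85 to 1.09, adjusted p = 0.624 in limma), and it turned to 0.35 without line #3.

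Among the T-cell-attracting chemokines, Cxcl10, an interferon-induced ligand of CXCR3, was even between lines before treatment. Its normalized counts with DMSO were 58.7, 56.3, 67.0 and 64.5 in lines #1, #3, #5 and #10, a mean of 61.7 ± 4.97 (SD, n = 4). With trametinib they were 223, 50.2, 449.5 and 401, a mean of 281 ± 182. Lines #1, #5 and #10 went up 3.79-, 6.71- and 6.21-fold, while line #3 was at 0.891 of its DMSO value, below all libraries of the DMSO group. Cxcl10 rose by 1.77 on the log2 scale over the 4 lines (SE 0.48, adjusted p = 0.0191 in limma).

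The call of Cxcl10 depended on its settings. Its adjusted p in limma was 0.0664, 0.0781 and 0.0733 without line #1, #5 or #10, 0.061 without the block for the line and 0.077 with quantile normalization. Without line #3 its log2 fold change was 2.42 (adjusted p = 0.000386 in limma).

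Ccl5, which draws T cells and monocytes, was barely detected and was not tested. It was at 1.86, 3.41, 1.39 and 1.07 normalized counts with DMSO and at 0.775, 3.22, 5.73 and 2.31 with trametinib. These values correspond to between 0.794 and 7.15 reads, and 5 of the 8 libraries did not exceed the floor of 3 reads, so no difference was detectable at this depth. The T-cell-attracting group therefore rested on Cxcl10.

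**Figure D2:**
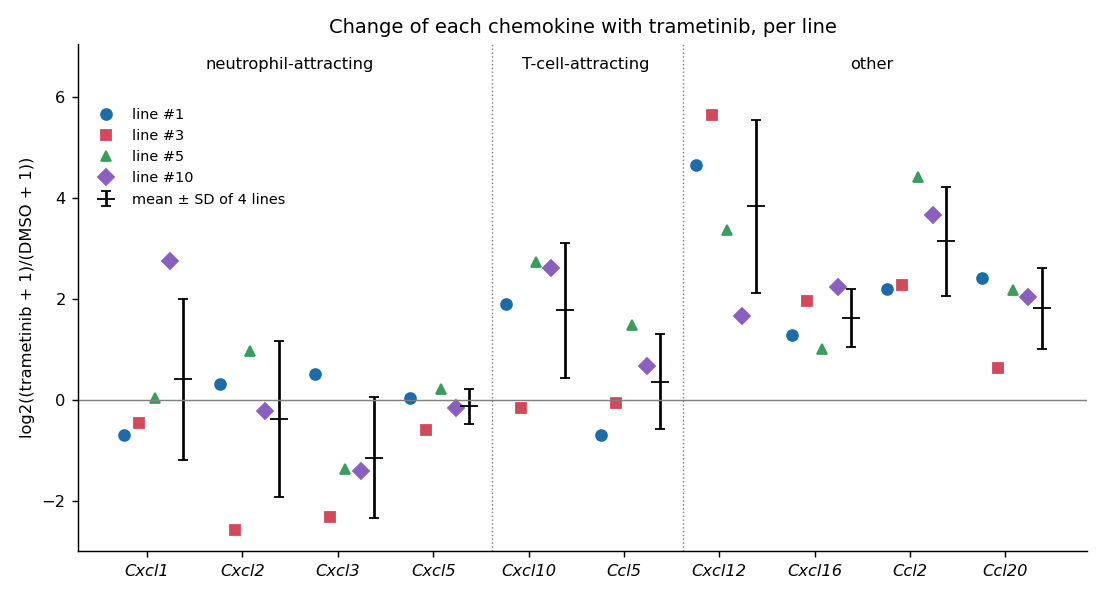
Log2 fold change of each chemokine with trametinib in lines #1, #3, #5 and #10, with the mean ± SD of the 4 lines beside them. Cxcl1, Cxcl2 and Cxcl5 lie on either side of 0, Cxcl3 is below 0 in lines #3, #5 and #10, and Cxcl12, Cxcl16, Ccl2 and Ccl20 are above 0 in every line.

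The neutrophil-attracting and T-cell-attracting groups were compared within each line, as a description without a test. The mean log2 fold change of Cxcl1, Cxcl2, Cxcl3 and Cxcl5 was 0.04, -1.49, -0.04 and 0.24 in lines #1, #3, #5 and #10. That of Cxcl10 and Ccl5 was 0.61, -0.11, 2.11 and 1.65. The neutrophil-attracting mean was thus the lower of the pair in 4 of 4 lines, by -0.57, -1.38, -2.15 and -1.41, with a mean difference of -1.38 ± 0.65 (SD, n = 4 lines). What made up the difference was not the same in each line. In lines #1, #5 and #10 the neutrophil-attracting mean lay within 0.24 of no change and the T-cell-attracting mean was above 0, whereas in line #3 the latter was near 0 and the former was below it. Of the neutrophil-attracting values in line #3, Cxcl3 was -2.33, from 31.2 to 5.42 normalized counts, and Cxcl2 was -2.59, a value set by the pseudocount, since it went from 5.01 to a listed 0. In line #10 the mean of 0.24 likewise rested on Cxcl1 (2.76, from a listed 0 to 5.76), while Cxcl2, Cxcl3 and Cxcl5 were at -0.22, -1.41 and -0.17. The means near 0 in lines #1 and #5 also held members with opposed changes. Cxcl1, Cxcl2, Cxcl3 and Cxcl5 were at -0.71, 0.32, 0.52 and 0.04 in line #1. In line #5 they were at 0.03, 0.96, -1.38 and 0.21.

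Ccl5 and Cxcl2 are the members with the fewest reads, and without the genes under the filter, which removes Ccl5, the mean difference was -2.09. With the genes that had a mean of at least 50, an alternative chosen after seeing the data, which sets Cxcl1, Cxcl3 and Cxcl5 against Cxcl10, it was -2.06. Set singly against Cxcl10, the log2 fold change of Cxcl2, Cxcl3 and Cxcl5 was lower in 4 of 4 lines, and that of Cxcl1 was lower in lines #1, #3 and #5. In line #10 the change of Cxcl1 was 0.14 above that of Cxcl10, a value set by the pseudocount, since Cxcl1 was listed at 0 with DMSO. The value of Cxcl2 in line #3 is likewise set by the pseudocount, since it was listed at 0 with trametinib.

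Summed normalized counts gave the balance of the transcripts themselves. The neutrophil-attracting genes held 9.91, 33.3, 14.5 and 19.5 times the counts of the T-cell-attracting genes with DMSO in lines #1, #3, #5 and #10. With trametinib the ratio was 2.40, 24.3, 2.23 and 2.68. It was lower with trametinib in 4 of 4 lines, and line #3 had the highest ratio under each treatment. The neutrophil-attracting sum itself changed little, by a log2 value of -0.25 ± 0.27 (SD, n = 4 lines), and the T-cell-attracting sum changed by 1.76 ± 1.33, nearly all of it Cxcl10. These ratios are of counts not divided by transcript length and describe the change rather than the amount of each transcript.

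**Figure D3:**
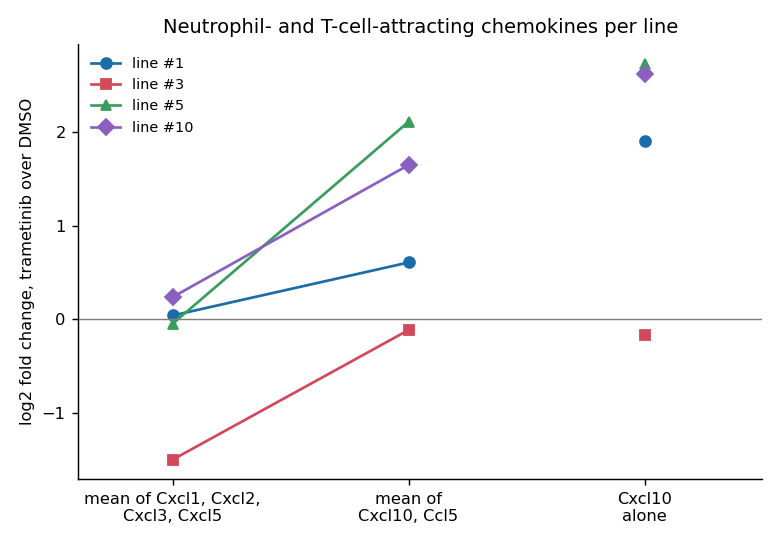
Mean log2 fold change of the neutrophil-attracting and T-cell-attracting chemokines in each cell line, joined by a line, and that of Cxcl10 alone. The neutrophil-attracting mean is lower in every line, and line #3 has the lowest value at each position.

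The 4 remaining members rose in every line. Cxcl12, the ligand of CXCR4 that stromal cells usually supply, had the greatest mean log2 fold change of the 10 over the 4 lines. In lines #5 and #10 the change of Ccl2 was larger (4.42 and 3.67, against 3.37 and 1.66 for Cxcl12). The normalized counts of Cxcl12 were 107, 106, 722 and 7.70 with DMSO in lines #1, #3, #5 and #10 and 2741, 5341, 7487 and 26.5 with trametinib. Lines #1, #3 and #5 reached 2741 or more, while line #10 stayed below every DMSO library of the other lines, and the groups overlapped for that reason. The folds were 25.6, 50.6, 10.4 and 3.44, and the log2 fold change was 3.84 ± 0.59 (SE, adjusted p = 0.0021 in limma). Without the block for the line its adjusted p in limma was 0.156, and in the alternatives with the block the call was kept.

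Cxcl16, a membrane-bound ligand of CXCR6 that is shed by proteases, was at 2002, 680, 1170 and 465 normalized counts with DMSO. With trametinib it was at 4876, 2660, 2351 and 2191, so that the lowest trametinib library was above the highest DMSO library. The order of the lines changed little, with line #1 highest and line #10 lowest in each group. Its rise was the most even of the members that passed, at 2.44-, 3.91-, 2.01- and 4.71-fold, with a log2 fold change of 1.62 ± 0.21 (SE, adjusted p = 0.00118 in limma).

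Ccl2, which draws monocytes through CCR2, was at 58.4, 5.22, 12.6 and 16.5 normalized counts with DMSO and at 273, 29.3, 291 and 221 with trametinib. Line #3 was lowest in each group, and its trametinib value lay among the DMSO values of other lines. Ccl2 rose by 3.14 on the log2 scale (SE 0.42, adjusted p = 0.00132 in limma), by 4.68-fold in line #1 and 23.0-fold in line #5.

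Ccl20, the ligand of CCR6, was at 151, 155, 190 and 335 normalized counts with DMSO and at 807, 240, 862 and 1377 with trametinib. Again line #3 was lowest with trametinib, with a 1.55-fold change against 4.11- to 5.34-fold in the others, and it overlapped the DMSO group. The log2 fold change was 1.81 ± 0.29 (SE, adjusted p = 0.00254 in limma). Cxcl16, Ccl2 and Ccl20 passed in all 14 alternatives run, with adjusted p in limma of at most 0.0277.

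Levels were compared between genes per kb of transcript, using the longest transcript of each gene. With DMSO the order by mean level was Cxcl5 (502 ± 395 normalized counts per kb, SD, n = 4), Cxcl16 (399.9 ± 253), Ccl20 (147 ± 61.2), Cxcl1, Cxcl12, Cxcl10, Cxcl3, Ccl2, Cxcl2 and Ccl5. With trametinib it was Cxcl16 (1119 ± 464), Cxcl12 (693 ± 574), Ccl20 (579.7 ± 328), Cxcl5 (412 ± 246), Ccl2, Cxcl10, Cxcl1, Cxcl3, Cxcl2 and Ccl5. The ranges of all neighbours in these orders overlapped. The order depended in part on the transcript length used: with the median length of each gene's transcripts Cxcl16 (649 ± 411) stood above Cxcl5 (544 ± 429) with DMSO, and Cxcl10 (229.6 ± 149) above Ccl2 (214 ± 126) with trametinib. With either length, the neighbours that kept their order in 4 of 4 lines were Ccl2 over Cxcl2 with DMSO and Cxcl3 over Cxcl2 with trametinib.

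As a share of the per-kb sum of all 10 members, the neutrophil-attracting genes made up 23.6%, 71.8%, 40.3% and 58.9% with DMSO in lines #1, #3, #5 and #10. With trametinib they made up 7.18%, 24.4%, 13.9% and 20.7%, lower in each line. The sum itself went from 1110 to 1474 normalized counts per kb with DMSO to 2741 to 3818 with trametinib, so the share was lower while Cxcl5 itself differed little. Cxcl10 and Ccl5 together made up 2.06% to 2.75% with DMSO and 0.958% to 6.69% with trametinib. Cxcl16 and Cxcl12 together made up 57.7% to 67.8% with trametinib in lines #1, #3 and #5, and 29.8% in line #10, where Ccl20 was the greatest share at 35.4%. The longest transcripts of Cxcl1, Cxcl2, Cxcl3 and Cxcl10 are unspliced models, and with median transcript lengths the neutrophil-attracting share was 19.5% to 62.5% with DMSO and 5.6% to 16.9% with trametinib.

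**Figure D4:**
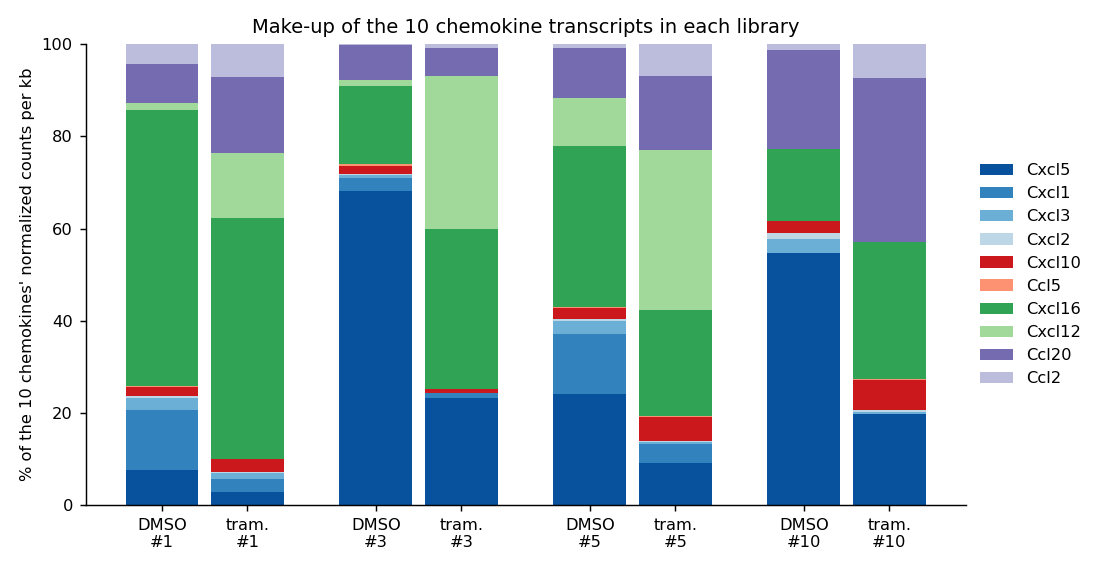
Share of each chemokine in the summed normalized counts per kb of the 10 members, for each library (tram., trametinib). The blue neutrophil-attracting part is smaller with trametinib in every line, and the green Cxcl16 and Cxcl12 part is the largest of the trametinib bars of lines #1, #3 and #5.

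Neighbours in the clusters on chromosome 5 had values of their own. Of the 11 genes listed for this region, 8 were tested, 2 rose and 0 fell in limma (1, Cxcl3, was lower at an unadjusted p under 0.05), where 27.3% and 25.6% of all genes tested did. Cxcl15, which sits between Cxcl3 and Cxcl1, was at 6.20, 2.08, 7.45 and 0.959 normalized counts with DMSO and at 17.6, 54.4, 32.0 and 21.2 with trametinib, with no overlap (log2 fold change 2.75 ± 0.54, SE, adjusted p = 0.00568 in limma). All trametinib libraries were above all DMSO libraries for 15.1% of the genes tested. The DMSO values of Cxcl15 were all under the filter of 10, which it passed through its trametinib values. Ppbp, the precursor of a platelet CXCR2 ligand, was lower in lines #1, #3 and #5 and higher in line #10 (35.4 to 98.0), with an adjusted p of 0.485 in limma. Pf4 was listed at 0 in all libraries except line #10 with DMSO (2.16), and Cxcl13 was at most 3.73.

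The neighbours of Cxcl10 also differed from it. Cxcl9, another ligand of CXCR3, was below the filter, at 3.10, 4.16, 1.24 and 3.84 with DMSO and at 7.83, 10.3, 4.0 and 21.2 with trametinib, higher in each line. Cxcl11, the third CXCR3 ligand, was at 4.53 to 14.0 with DMSO and went to 90.9 in line #5 alone, with 2.94 to 7.53 in the other lines (adjusted p = 0.603 in limma). Exons of Cxcl11 overlap another gene over 1582 bases, and GENCODE M21 calls the mouse gene a polymorphic pseudogene.

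Other chemokines were few. Of 28 further chemokines listed, 24 were in the table and 9 passed the filter, of which 3 rose and 1 fell, beside 27.3% and 25.6% of all genes tested. The 3 that rose (Ccl17, Cxcl17 and Cxcl15) passed the filter through their trametinib values, since their DMSO means were under 10. Ccl17, a ligand of CCR4, rose most, from 8.47, 3.02, 8.67 and 14.2 normalized counts to 278, 484, 80.5 and 452 (log2 fold change 4.94 ± 0.57, SE, adjusted p = 0.000838 in limma). Cxcl17, a chemokine of mucosal tissues, rose from 6.14 to 12.4 normalized counts with DMSO to 17.0 to 39.7 (log2 fold change 1.74, adjusted p = 0.00725 in limma). Cx3cl1, the membrane-bound ligand of CX3CR1, fell by 0.61 on the log2 scale (adjusted p = 0.0208 in limma). Cx3cl1 did not pass without the block, without a trend in eBayes, or without line #5 or #10 (adjusted p = 0.196, 0.0552, 0.0634 and 0.0769 in limma). Cxcl14, Ccl1, Ccl3 and Ccl11 were listed at 0 in every library, and Ccl12, Ccl19, Ccl21a and Ccl26 were not analysed here.

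Chemokine receptors were mostly below the filter. Of 22 in the table, 3 were tested, of which 1 fell, beside 25.6% of all genes tested. Cxcr1, Cxcr3, Ccr3 and Ccr6 were listed at 0 in every library. Ackr3, an atypical receptor that takes up CXCL12, was at 1295, 751, 1406 and 1352 normalized counts with DMSO and at 322, 418, 161 and 345 with trametinib. It was lower in every line without overlap (log2 fold change -1.98 ± 0.33, SE, adjusted p = 0.00274 in limma). How many of all genes were separated downward in this way was not counted.

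Regulators of the chemokine promoters were read from the same fit. Of 18 NF-kappaB genes, all tested, 10 rose, 1 fell and 7 did not pass, with a median log2 fold change of 0.45 (27.3% and 25.6% of all genes tested rose and fell, with a median of 0.07). Nfkbia and Nfkbie, inhibitors that NF-kappaB itself induces, rose by 1.46 and 1.44, and the subunit Relb by 1.31 (adjusted p = 0.000335, 0.00064 and 0.000335 in limma). Tnfaip3, a deubiquitinase that limits the pathway, rose by 0.96 (adjusted p = 0.00125 in limma). Nfkbiz, a nuclear cofactor needed for some target genes, was the one that fell, by 0.71 (adjusted p = 0.00328 in limma).

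Of 10 interferon-side factors, 5 rose, 1 fell and 4 did not pass, beside 27.3% and 25.6% of all genes tested, with a median log2 fold change of 0.60. Among those that passed the greatest changes were in Stat2 (1.45), Stat3 (1.12), Irf9 (0.76) and Ikbke (0.58) on the log2 scale, with adjusted p of 0.000229, 0.000488, 0.00965 and 0.012 in limma. Line #3, where Cxcl10 did not go up, had a Stat2 change like the others, from 862 to 2033 normalized counts. Of 11 transcription factors of the immediate response, 6 rose and 4 fell, beside 27.3% and 25.6% of all genes tested. Among them Egr1 fell by 4.64, Fosl1 by 3.73 and Fos by 1.89, while Atf3 rose by 2.41 on the log2 scale (adjusted p = 9.44e-05, 0.000306, 0.00103 and 0.000146 in limma). The AP-1 genes thus moved in opposite directions.

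**Figure D5:**
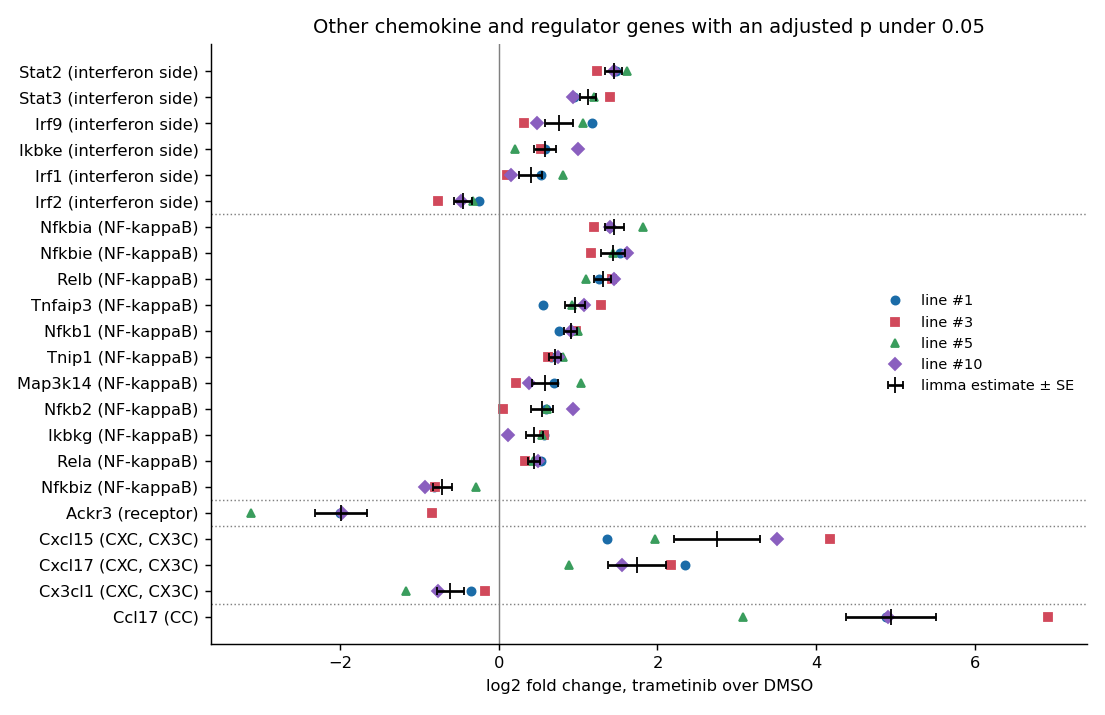
Log2 fold change with trametinib of the other chemokines, receptors, NF-kappaB genes and interferon-side factors with an adjusted p under 0.05 in limma, with points for lines and the estimate ± SE. Ccl17 stands furthest to the right at 4.94 and Ackr3 furthest to the left at -1.98. Ccl17, Cxcl17 and Cxcl15 passed the filter on low values through their trametinib values.

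Upstream, 18 receptors and adaptors for IL-1, TNF, IL-17, interferons and microbial products were tested, and 7 rose, 4 fell and 7 did not pass, beside 27.3% and 25.6% of all genes. Il1rn, the natural antagonist of IL-1, fell from 1273, 6410, 4976 and 1052 normalized counts to 426, 54.3, 587 and 201 (log2 fold change -3.48, adjusted p = 0.00964 in limma). Tlr2 rose by 2.19, Tlr3 by 1.02 and Tlr4 by 0.91 (adjusted p = 0.000363, 0.00174 and 0.00222 in limma).

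Genes that act after transcription were read in the same way. Of 8 genes of AU-rich mRNA decay and stability, which shorten or lengthen the life of mRNAs such as that of Cxcl1, 2 rose and 4 fell, where 27.3% and 25.6% of all genes tested did. Zfp36l1 rose by 1.29, and Zfp36l2, Hnrnpd and Elavl1 fell by 1.23, 1.17 and 0.72 on the log2 scale (adjusted p = 0.000447, 0.000575, 0.000255 and 0.00157 in limma). Of 3 tested genes for enzymes that cut chemokines, 2 rose, 0 fell and 1 (Adam17) did not pass, beside 27.3% and 25.6% of all genes tested. Mmp14 rose from 2278 to 5148 normalized counts with DMSO to 13309 to 20201 (log2 fold change 2.09, adjusted p = 0.000947 in limma). Adam10, a protease that sheds CXCL16, rose by 0.88 (adjusted p = 0.00698 in limma).

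Genes whose pattern over the 8 libraries was most like that of a member were named by Pearson's r on the log2 scale, with the same libraries, lines and scaling behind every point. For Cxcl1 these were Pex7 (r = 0.98), Dpp8 (r = 0.97) and Prdm16 (r = 0.97), each lowest in line #10. For Cxcl5 they included Adal (r = 0.98) and 2610017A05Rik (r = 0.96), which follow the differences between lines. For Cxcl10 they were Rasl12 (r = 0.98), Hint3 (r = 0.98) and Thnsl1 (r = 0.97). Rasl12 was at 16.6 to 27.6 normalized counts with DMSO and at 86.2, 21.7, 291 and 305 with trametinib, low in line #3 as Cxcl10 was. These were the highest of 15888 values, over 8 libraries, and no test was made of them.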

How the data were processed

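PolyA RNA of 4 murine PDAC lines was sequenced with DMSO and with trametinib, 8 libraries in all, and groups were taken from the sample labels. The authors deposited normalized counts per gene, a signal that is comparable between libraries, and all columns were used. The submitters' processing notes name CASAVA 2.17, Salmon 0.12, DESeq2 1.18 and the build mm10, with no role given. Whole reads could not be recovered, since only 57.1% to 68.0% of low values were whole multiples of the step (within 0.05 of a step), so no count test was used.

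Values were transformed as log2(value + 1), a scale that understates changes of low genes, and fitted in R 4.3.3 using limma 3.58.1 (lmFit, eBayes with trend, cell line as block). The 15888 genes whose mean reached 10 were tested, and p-values adjusted by Benjamini-Hochberg, with a threshold of 0.05. The libraries of a line are paired by the labels, and their deviations correlated at r = 0.63 to 0.72 across genes. The fit was tested on simulated data. Tables were handled in Python 3.11.15 with pandas 2.3.3 and numpy 2.4.6, and figures drawn with matplotlib 3.10.9.

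Positions and transcript lengths were taken by symbol from GENCODE M21 (GRCm38), and promoters from RefSeq on GRCm38.p6. Cxcl5, Cxcl16, Ccl2 and Ccl5 had no promoter entry. Members and lists were chosen with earlier results of these data known. The genes named are the 10 members, Dusp6 and Etv4, the genes of the chromosome 5 clusters, up to 4 called genes per list with the largest change, and the 3 genes most like Cxcl1, Cxcl5 and Cxcl10, of which 1 is not reported here. Other genes named were chosen after their values were seen. Alternatives were pseudocounts of 0.1 and 5, equal totals, quantile normalization, centring on the median, no filter, a filter at 50, no block, 2 other eBayes settings and leaving out each line.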

Additional observations from a re-analysis of the deposited data

Results flagged for a closer look

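Of 31 groups of 4 values examined for a library or line far from the others (each member with DMSO, with trametinib and as a change, and the difference between the chemokine groups), 1 stood out, where chance alone would give about 1.55. Cxcl12 in line #5 with DMSO was at 722 normalized counts, against 7.70 to 107 in the other lines.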

How the results depend on the processing

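Cxcl16, Ccl2 and Ccl20 kept their direction and call in all 14 alternatives. Without the replicate block for the cell line, 2205 genes rose and 2347 fell, and 3 chemokines rose in place of 5, as Cxcl12 (3.84, adjusted p = 0.156 in limma) and Cxcl10 (1.77) lost their call. With quantile normalization and with centring on the median, 1 chemokine fell in place of 0, which was Cxcl3 (-1.56 and -1.21, adjusted p = 0.0281 and 0.0491 in limma). Leaving out each line in turn, 3383 to 4195 genes rose and 3302 to 4007 fell, 4 to 5 chemokines rose and 0 to 1 fell. The direction turned for Cxcl1 without line #10 (-0.38, up to 0.77 without line #1), for Cxcl2 without line #3 (0.35, down to -0.83 without line #5), for Cxcl5 without line #3 (0.027, down to -0.24 without line #5) and for Cxcl11 with quantile normalization (-0.056). The log2 fold change of Cxcl1, listed at 0 with DMSO in line #10, was 1.2 with a pseudocount of 0.1 and 0.0011 with one of 5. The difference between the chemokine groups, -1.38, was -2.09 with the genes that pass the filter and -2.06 with those that have a mean of at least 50, and lay between -1.65 and -1.12 without a line. Of 555 values of the 40 other genes named with a fold change and test, 521 kept their direction and call, 33 kept their direction and lost the call, and 1 turned. Without the block, the genes among them that lost the call were Cx3cl1, Nfkbie, Tnfaip3, Nfkbiz, Ikbke, Tlr3, Tlr4, Csf1r, Vwf, Krt7, Krt18, Krt8 and Krt19 (adjusted p = 0.0504 to 0.655 in limma). Rescaling to equal totals moved the median of all genes from 0.07 to 0.20 and the share of called genes that rose from 51.6% to 61.9%, and quantile normalization moved the median to -0.03. Members with few reads, Cxcl2 and Ccl5, are limited by depth, and 1 library per line and treatment leaves no error within a line.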
